A study of Mus musculus with 20 samples.

Results

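The TRAV14 family of the mouse T cell receptor (TCR) α locus was examined across 4 genotypes. Members were chosen from the TCRα clone tables as the V genes named TRAV14, TRAV14D or TRAV14N that stood first in the V list of an in-frame clone. TRAV14D-3-DV8, which can also serve the TCRδ chain, was outside the rule. The rule found 8 members among 103 TRAV genes: TRAV14-1, TRAV14-2, TRAV14-3, TRAV14D-1, TRAV14D-2, TRAV14N-1, TRAV14N-2 and TRAV14N-3. The family was chosen because of the usage of TRAV14-1 in β5t-KO mice compared with WT and BIT mice, so its V gene usage in those comparisons is given below as a description without a test. The 7 other members are called the copies of TRAV14-1.

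CD8 T cells (TCRβ-high, CD4-CD8+) were sorted from male mice on the C57BL/6 background, 9 to 12 weeks of age. The labels name lymph nodes as the tissue, and the protocol names lymph nodes and spleens. WT mice carry both specialised catalytic proteasome subunits. β5i-KO mice lack β5i, the immunoproteasome subunit encoded by Psmb8. β5t-KO mice lack β5t, the subunit of the thymoproteasome encoded by Psmb11 and found in cortical thymic epithelial cells, on which developing CD8 T cells are positively selected. In BIT mice the β5t-coding sequence was inserted into Psmb8, so that cells which would make β5i, hematopoietic cells among them, make β5t, and Psmb11 itself is kept. The labels do not say which BIT line each mouse came from. Neither Psmb8 and Psmb11 nor markers of the sorted cells are read by these libraries, which thus offer no check of genotype or cell type. The labels list 5 mice per group, and the comparisons used 4 of WT, 5 of β5i-KO, 4 of β5t-KO and 4 of BIT. WT mouse 5, β5t-KO mouse 5 and BIT mouse 3 were left out by the rule.

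Each TCRα chain is made by joining 1 TRAV gene to 1 TRAJ gene, and the join forms the third complementarity-determining region (CDR3), which contacts the peptide presented by MHC. The mouse TRAV cluster has been duplicated, and names with D or N mark the duplicated copies of a gene. A thymocyte can rearrange its TCRα locus repeatedly before selection, each time with a V gene farther upstream and a J gene farther downstream. The choice of TRAV and TRAJ is therefore known to depend on position along the locus. CDR1 and CDR2, the other loops of the chain, are encoded wholly in the V gene.

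The ends of the germline V genes are shown because they form the first part of the CDR3 and because they show how little of the sequence separates the members there. Positions are on chromosome 14 of GRCm39, plus strand, from the GENCODE vM39 annotation, and each span covers the leader exon and the V exon. TRAV14D-1 lies at chr14:53093071-53093623 and TRAV14D-2 at chr14:53186025-53186626. TRAV14N-1 lies at chr14:53404083-53404635, TRAV14N-2 at chr14:53497035-53497636 and TRAV14N-3 at chr14:53607534-53608032. TRAV14-1 lies at chr14:53791479-53792015, TRAV14-2 at chr14:53878158-53878682 and TRAV14-3 at chr14:54000630-54001151. The last 30 bases of each annotated V transcript are printed 5′ to 3′, with capitals for the 13 bases that begin the CDR3 at the conserved cysteine.
TRAV14D-1, TRAV14D-2, TRAV14N-1, TRAV14N-2: actcagctacctacttcTGTGCAGCAAGTG
TRAV14-1, TRAV14-2, TRAV14N-3: actcagccacctacttcTGTGCAGCAAGTG
TRAV14-3: actcagccacttacttcTGTGCAGCAAGTG
The last 19 bases were the same in all members, so these 13 bases do not tell one member from another. Over the last 270 bases of the V transcripts, identity between members ranged from 92.6% to 100%. TRAV14D-1 was identical to TRAV14N-1 over this stretch, and TRAV14D-2 was identical to TRAV14N-2. TRAV14-1 differed from its copies at 11 to 20 of these bases, with the fewest mismatches to TRAV14D-1 and TRAV14N-1 and the most to TRAV14D-2 and TRAV14N-2.

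The 17 libraries held 23417 in-frame family clones, which made 22194 clonotypes. A clonotype is a distinct combination of V gene, J gene and CDR3 amino acid sequence, counted once per mouse whatever its reads. The libraries held 616 to 26047 in-frame TRAV clonotypes (median 7587), of which 74 to 2908 were of the family and 8 to 399 of TRAV14-1. The lowest of these numbers all came from β5t-KO mouse 2. The family made up 10.2% to 12.8% of in-frame TRAV clonotypes (median 11.4%).

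The assignment of a clone to 1 member is uncertain for some members. TRAV14D-1 was listed with a further V gene in 51.8% of its clones, most often TRAV14N-1, and TRAV14D-2 in 37.5%, most often TRAV14N-2. TRAV14-1 was listed with a further V gene in 4.51% of its clones, most often TRAV14D-1 (3.88%). For TRAV14-2, TRAV14-3 and TRAV14N-3 the percentage was 0.293%, 0.159% and 0.285%. Only 7 of 235938 clones repeated a CDR3 nucleotide sequence within a table, so each CDR3 sequence of a mouse stands under a single V gene. Of 15717 family CDR3 nucleotide sequences, 3220 occurred in more than 1 library, and 2678 of these (83.2%) carried different member genes in different libraries. V gene usage of a member is thus the usage assigned by the authors' clone tables. TRAV14N-1, with 20 clones in 10 libraries, and TRAV14N-2, with 2 clones in 2 libraries, stood below the filter of at least 5 clonotypes in at least 4 libraries. They are identical over the compared 270 bases to TRAV14D-1 and TRAV14D-2, and the clone tables separate the genes of each pair in part of their clones.

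V gene usage of the 6 members that passed the filter was first described by mouse. TRAV14D-1 was the most used member, with a median of 3.24% of in-frame TRAV clonotypes over the 17 mice. TRAV14-2 followed with 2.43%, TRAV14N-3 with 1.66%, TRAV14-1 with 1.46%, and TRAV14D-2 and TRAV14-3 with 1.2% each. Neighbours in the order from TRAV14N-3 to TRAV14-3 overlapped across mice.

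TRAV14-1 made up 0.98%, 1.39%, 1.46% and 1.40% of clonotypes in WT mice 1 to 4. In β5i-KO mice 1 to 5 it made up 1.42%, 1.59%, 1.62%, 1.35% and 1.35%. In β5t-KO mice 1 to 4 it made up 2.48%, 1.30%, 2.53% and 3.21%. In BIT mice 1, 2, 4 and 5 it made up 1.5%, 1.52%, 1.52% and 1.43%. The 3 β5t-KO mice other than mouse 2 stood above every mouse of the other groups, and β5t-KO mouse 2, where TRAV14-1 had 8 clonotypes, stood within the range of WT. WT mice averaged 1.31% ± 0.22 (SD, n = 4) and β5i-KO mice 1.47% ± 0.13 (SD, n = 5). β5t-KO mice averaged 2.38% ± 0.79 (SD, n = 4) and BIT mice 1.49% ± 0.04 (SD, n = 4). In the edgeR quasi-likelihood model over 90 TRAV genes the log2 fold change of TRAV14-1 was 0.89 ± 0.15 (SE) in β5t-KO compared with WT and -0.76 ± 0.14 in BIT compared with β5t-KO. These are the comparisons that chose the family.

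The copies did not share this pattern as a group. TRAV14-2, the next gene downstream, made up 2.46%, 3.57%, 3.01% and 2.97% of clonotypes in β5t-KO mice 1 to 4 and 2.70%, 2.45%, 2.43% and 2.31% in WT mice 1 to 4, which overlapped. In BIT mice 1, 2, 4 and 5 TRAV14-2 made up 2.29%, 2.15%, 2.12% and 2.21%, below every β5t-KO and every WT mouse. TRAV14D-2 made up 1.00%, 0.81%, 1.04% and 0.85% in β5t-KO mice, compared with 0.94%, 1.2%, 1.34% and 1.42% in WT mice and 1.13%, 1.41%, 1.54% and 1.2% in BIT mice. It was thus lower in every β5t-KO mouse than in every BIT mouse. TRAV14D-1, the most used member, ranged from 2.76% to 3.15% in β5t-KO mice and from 2.87% to 3.92% in WT mice. TRAV14-3 and TRAV14N-3 overlapped between all groups compared, at 0.94% to 1.71% and 1.21% to 2.11%.

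**Figure D1:**
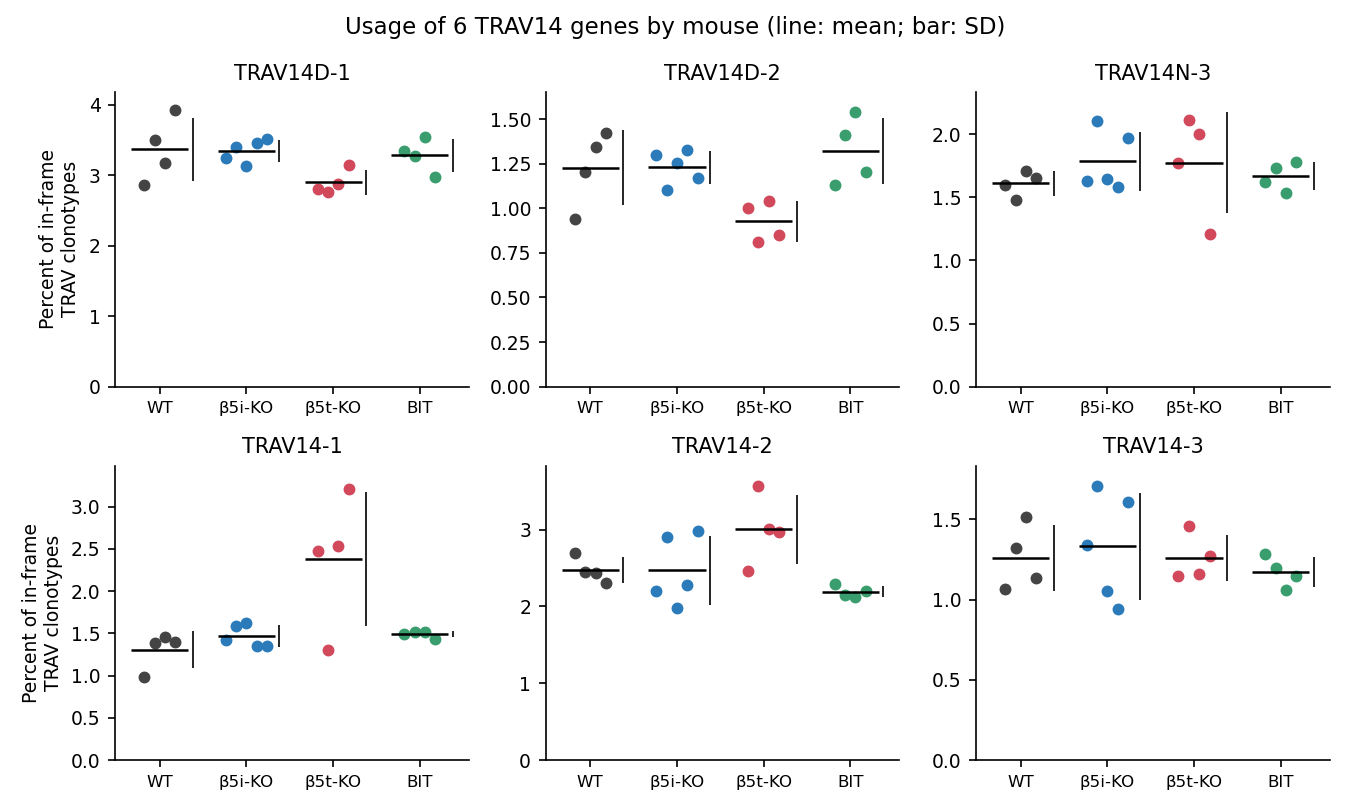
Percent of in-frame TRAV clonotypes (vertical axis) for each of the 6 members that passed the filter, by genotype (horizontal axis). Points are mice, lines are means and bars are SD. TRAV14-1 reaches 2.48% to 3.21% in 3 of the 4 β5t-KO mice and lies at 0.98% to 1.62% in all other mice, β5t-KO mouse 2 included, whereas TRAV14D-2 has its lowest mean in β5t-KO mice.

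In β5t-KO compared with WT the log2 fold changes of the copies were 0.23 ± 0.14 (SE) for TRAV14-2, 0.14 ± 0.15 for TRAV14N-3, -0.11 ± 0.18 for TRAV14-3, -0.24 ± 0.12 for TRAV14D-1 and -0.39 ± 0.17 for TRAV14D-2. TRAV14-1 was chosen as 1 of the genes that edgeR called in this comparison, 6.67% of the 90 TRAV genes tested, and no other member was among them. No member was free of overlap between these groups, where 8.89% of the 90 genes were. In BIT compared with β5t-KO, TRAV14-1 was again the only member called, and the genes called were 7.78% of the 90. Since these calls chose the family, they say nothing further about it. With unique molecules or reads in place of clonotypes, the member called in BIT compared with β5t-KO was TRAV14D-2 and not TRAV14-1. Groups did not overlap for 2 of 6 members, TRAV14-2 and TRAV14D-2, in BIT compared with β5t-KO, where 18.9% of the 90 genes did not overlap.

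The comparisons that did not enter the choice of the family asked whether the usage of a member differed between WT, β5i-KO and BIT mice. For TRAV14-1 the log2 fold change was 0.12 ± 0.13 (SE) in β5i-KO compared with WT (edgeR adjusted p = 0.777), 0.13 ± 0.13 in BIT compared with WT (adjusted p = 0.598) and 0.01 ± 0.12 in BIT compared with β5i-KO (adjusted p = 0.995). None of the 6 members was called by edgeR in these 3 comparisons, and none had an unadjusted p below 0.05. Of all 90 TRAV genes, edgeR called 1.11% in β5i-KO compared with WT, 2.22% in BIT compared with WT and 0% in BIT compared with β5i-KO. At an unadjusted p below 0.05 the numbers over all 90 genes were 12, 17 and 2. DESeq2 called 0 members in these comparisons. In BIT compared with WT the groups did not overlap for 1 of 6 members, TRAV14-2, and for 15.6% of the 90 genes. In BIT compared with β5i-KO this held for 0 of 6 members and 3.33% of the 90 genes, and in β5i-KO compared with WT for no gene.

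The rest of the TRAV cluster was given by the letter in the gene name. Outside the family, 41 genes with no letter, 28 genes with D and 15 genes with N were tested. In β5i-KO compared with WT the only gene called was TRAV7D-5, which was lower. In BIT compared with WT the genes called were TRAV12-1 and TRAV7D-5, both lower. The median log2 fold change of the 6 members was -0.01 in β5i-KO compared with WT, -0.02 in BIT compared with WT and -0.05 in BIT compared with β5i-KO. The medians over all 90 genes were 0.09, 0.13 and 0.02.

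The contrast between TRAV14-1 and its copies was then expressed as the share of family clonotypes that carried TRAV14-1, which does not depend on how much of the repertoire the family takes up. In WT mice 1 to 4 the share was 9.68%, 12.2%, 12.5% and 11.8%. In β5i-KO mice 1 to 5 it was 12.8%, 12.4%, 15.1%, 12.4% and 10.7%. In β5t-KO mice 1 to 4 it was 21.2%, 10.8%, 20.04% and 25.4%. All 4 BIT mice had 13.4%. The same 3 β5t-KO mice stood above all others, and the BIT mice lay close to each other. With libraries thinned to the same number of molecules their spread was like that of β5i-KO mice (SD 1.14 and 1.10). The 95% Wilson interval was 18.4% to 24.3% for β5t-KO mouse 1 (158 of 744 clonotypes) and 5.58% to 19.9% for β5t-KO mouse 2 (8 of 74). The interval of β5t-KO mouse 2 therefore covered the WT values and reached almost to those of the other β5t-KO mice. These intervals cover counting error only.

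**Figure D2:**
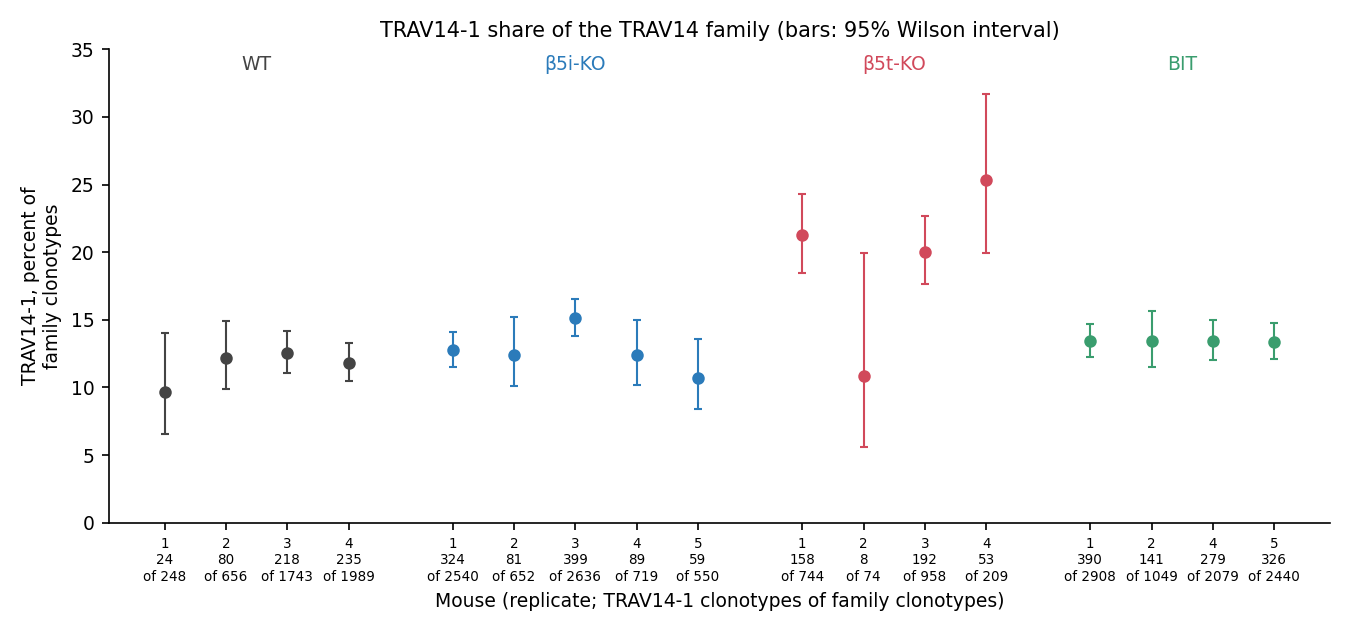
TRAV14-1 clonotypes as a percent of family clonotypes (vertical axis) in each mouse, with the 2 counts under each point and 95% Wilson intervals as bars. Mice of WT, β5i-KO and BIT groups lie between 9.68% and 15.1%. β5t-KO mice 1, 3 and 4 lie between 20.04% and 25.4%, and β5t-KO mouse 2 lies at 10.8% with the widest interval.

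WT mice averaged a share of 11.5% ± 1.28 (SD, n = 4) and β5i-KO mice 12.7% ± 1.58 (SD, n = 5). β5t-KO mice averaged 19.4% ± 6.14 (SD, n = 4) and BIT mice 13.4% ± 0.034 (SD, n = 4). The shares of the members sum to 100% in each mouse. TRAV14D-1 held 22.8% to 24.9% of the family in β5t-KO mice and 27.3% to 33.1% in WT mice. TRAV14D-2 held 6.70% to 8.60% in β5t-KO and 9.27% to 12.0% in WT mice. β5t-KO mouse 2, with the lowest TRAV14-1 share of its group, held 23.0% and 6.76%, within the range of the other β5t-KO mice.

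TRAJ genes were not used to choose the family, and they were compared next. The 60 annotated TRAJ genes lie downstream of all members, and their numbers fall from TRAJ61 to TRAJ1 along 63.809 kb, so a high TRAJ number means a position near the V genes. TRAV14-3, the member nearest to the TRAJ genes, lies 391.311 kb upstream of TRAJ61. TRAV14-2 lies 513.78 kb upstream, TRAV14-1 600.447 kb, TRAV14N-3 784.43 kb and TRAV14D-2 1205.836 kb. TRAV14D-1, the most distant member, lies 1299 kb upstream.

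The mean TRAJ number of the clonotypes followed the position of the V gene. Pooled over the 17 mice it was 45.2 for TRAV14-3, 36.5 for TRAV14-2, 33.04 for TRAV14-1, 24.8 for TRAV14N-3, 24.2 for TRAV14D-1 and 20.9 for TRAV14D-2. TRAV14-3 was above TRAV14-2 in 17 of 17 mice, by 8.81 ± 1.86 TRAJ numbers (SD, n = 17). TRAV14-2 was above TRAV14-1 in 16 of 17 mice, by 3.60 ± 2.43, with WT mouse 1 as the exception. TRAV14-1 was above TRAV14N-3 in 17 of 17 mice, by 8.05 ± 2.69. TRAV14N-3 and TRAV14D-1 did not differ beyond the spread between mice, with TRAV14N-3 higher in 9 of 17 mice. TRAV14D-1 was above TRAV14D-2 in 17 of 17 mice, although TRAV14D-1 is the more distant gene. Clones of TRAV14N-1 and TRAV14N-2, which lie 987.827 and 894.826 kb upstream of TRAJ61, are in part listed together with those of TRAV14D-1 and TRAV14D-2. TRAJ40 and the genes upstream of it took 78.3% of TRAV14-3 clonotypes, 47.3% of TRAV14-2, 33.1% of TRAV14-1 and 9.14% of TRAV14D-2 clonotypes.

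**Figure D3:**
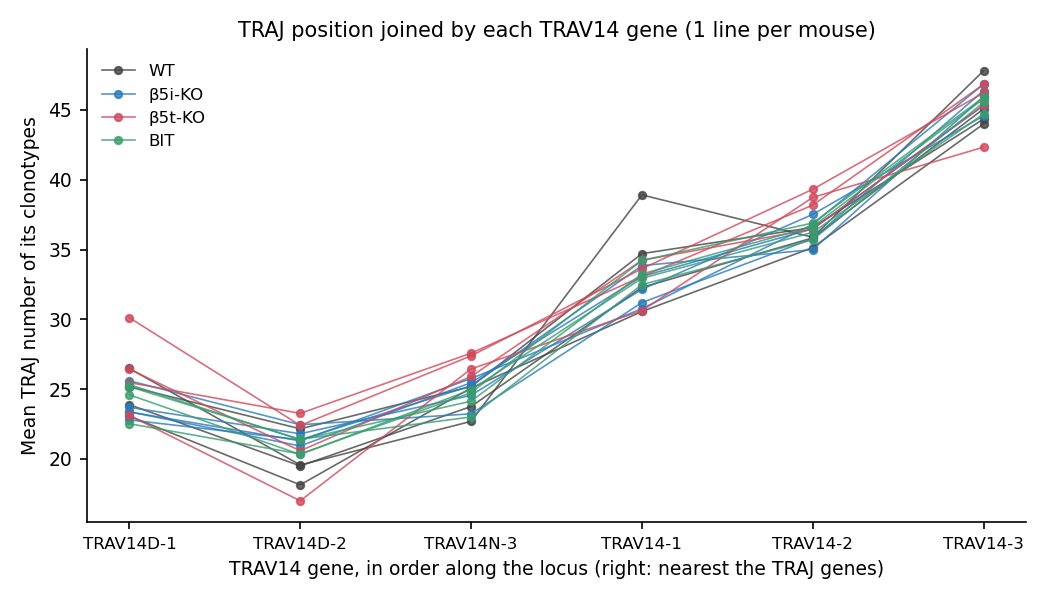
Mean TRAJ number of the clonotypes of each member (vertical axis), with members in their order along chromosome 14 (horizontal axis, nearest to the TRAJ genes on the right). Each line is a mouse, coloured by genotype. TRAV14-3 is above TRAV14-2 in 17 of 17 mice and TRAV14-1 is above TRAV14N-3 in 17 of 17 mice, whatever the genotype.

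Compared with its copies pooled, TRAV14-1 had a mean TRAJ number higher by 3.11 ± 2.21 (SD, n = 17), and it was higher in 16 of 17 mice (two-sided permutation test by sign within mice, p = 9e-05, adjusted p = 0.000135 over 3 measures). β5t-KO mouse 2 was the exception. The direction depended on which copies were taken. Compared with TRAV14-2 and TRAV14-3 pooled, TRAV14-1 was lower by -6.54 ± 2.09 in 17 of 17 mice (SD, n = 17; permutation p = 4e-05). Compared with the D and N copies pooled it was higher by 9.02 ± 2.08 in 17 of 17 mice (SD, n = 17; permutation p = 4e-05). These last 2 comparisons were added after the values were seen.

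Between genotypes, the mean TRAJ number of TRAV14-1 did not differ beyond the spread between mice in any of 5 comparisons (exact permutation test, adjusted p = 0.8 in each). WT mice averaged 34.1 ± 3.62 (SD, n = 4), β5i-KO mice 32.2 ± 1.28 (SD, n = 5), β5t-KO mice 32.9 ± 1.58 (SD, n = 4) and BIT mice 33.2 ± 0.73 (SD, n = 4). The copies stood at 31.8 ± 1.69 in β5t-KO (SD, n = 4) and 29.3 ± 1.19 in WT (SD, n = 4), and the ranges of 30.5 to 34.3 and 28.2 to 30.4 did not overlap. The difference was 2.51 (exact permutation p = 0.0286, adjusted p = 0.0714 over the 5 comparisons). Groups of 4 and 4 mice cannot give a lower p than this. BIT mice differed from β5t-KO mice by -2.69 (exact permutation p = 0.0286, adjusted p = 0.0714). Neither difference passed the correction. The copies pool genes with unlike TRAJ numbers, and each part of them overlapped between β5t-KO and WT mice. TRAV14-2 and TRAV14-3 together stood at 38.9 to 41.3 in β5t-KO and 38.2 to 39.6 in WT mice, and the D and N copies at 22.9 to 28.0 and 22.5 to 24.5. All other TRAV genes together had mean TRAJ numbers of 28.9 to 29.7 in β5t-KO and 26.7 to 28.3 in WT mice, which also did not overlap.

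The single TRAJ genes were described without a test. The family used TRAJ22 most (6.73% of its clonotypes), followed by TRAJ26 (4.81%), TRAJ49 (4.60%), TRAJ23 (4.54%) and TRAJ30 (4.31%). Among the copies, TRAJ22 took 9.56%, 12.1%, 10.4% and 14.1% of clonotypes in β5t-KO mice 1 to 4, and 8.93%, 7.12%, 6.95% and 6.16% in WT mice 1 to 4. The β5t-KO mice lay above the WT mice, and β5i-KO mice 2 and 5, at 9.81% and 9.98%, lay within the range of β5t-KO. Within WT, β5i-KO and BIT mice this share fell as the number of copy clonotypes rose. It fell from 8.93% of 224 to 6.16% of 1754 in WT mice and from 9.98% of 491 to 6.03% of 2237 in β5i-KO mice. In BIT mice it fell from 8.26% of 908 to 5.80% of 2518. β5t-KO mice held 66 to 766 copy clonotypes, and their shares did not follow that order. The effect of depth was not tested. TRAJ27, which was picked after its values were seen, took 9.49%, 12.5%, 8.85% and 7.55% of TRAV14-1 clonotypes in β5t-KO mice 1 to 4, where 12.5% was 1 of 8 clonotypes. It took 8.33%, 6.25%, 4.59% and 4.26% in WT mice 1 to 4 and 3.59%, 3.55%, 4.66% and 5.52% in BIT mice 1, 2, 4 and 5. The 8.33% of WT mouse 1 was 2 of 24 clonotypes and lay within the range of β5t-KO. β5i-KO mice ranged from 0% to 4.26%. Among all other TRAV genes TRAJ27 also stood higher in β5t-KO mice, at 3.4% to 4.06%, than in WT mice, at 2.69% to 3.32%, or BIT mice, at 2.55% to 3.14%. Among the copies these groups overlapped, at 1.52% to 2.22%, 1.91% to 2.29% and 1.99% to 2.58%.

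CDR3 length was nearly the same in TRAV14-1 and its copies, at 13.57 and 13.56 residues averaged over mice. The difference of 0.0063 ± 0.309 residues (SD, n = 17) did not exceed the spread between mice (permutation p = 0.998, adjusted p = 0.998). TRAV14-1 was nevertheless the longer in 15 of 17 mice. β5t-KO mouse 2, whose 8 TRAV14-1 clonotypes were shorter by 1.17 residues than those of the copies, decided this result. Without it the difference was 0.0799 residues with an adjusted permutation p of 0.000244. Between genotypes no comparison of CDR3 length passed the correction, for TRAV14-1 or for the copies (exact permutation test, lowest adjusted p = 0.357).

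The number of unique molecules per clonotype was a further measure that the choice of the family did not use. It was taken as the log2 mean number of molecules per clonotype relative to all other TRAV genes of the same library. This adjusts for the depth of the library only in part, since every clonotype holds at least 1 molecule. RNA molecules per clonotype reflect both the number of cells and the RNA per cell, which cannot be told apart. TRAV14-1 stood below its copies by -0.28 ± 0.20 on the log2 scale (SD, n = 17) and was higher in 1 of 17 mice, β5i-KO mouse 2 (permutation p = 9e-05, adjusted p = 0.000135). On medians in place of means the difference was -0.13 and did not pass (adjusted permutation p = 0.416). The mean was -0.22 for TRAV14-1 and 0.07 for the copies. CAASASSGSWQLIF with TRAJ22, a clonotype described below, stood under TRAV14-1 in only 3 of 17 mice and raises the mean of the copies. Summed over all members it held 94 molecules in β5i-KO mouse 4 and 3985 in WT mouse 4, the lowest and highest counts. Clonotypes of the copies averaged 2.15 and 32.97 molecules in these mice. Its part in the difference of means was not tested, so that difference may not hold for TRAV14-1 clonotypes in general.

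**Figure D4:**
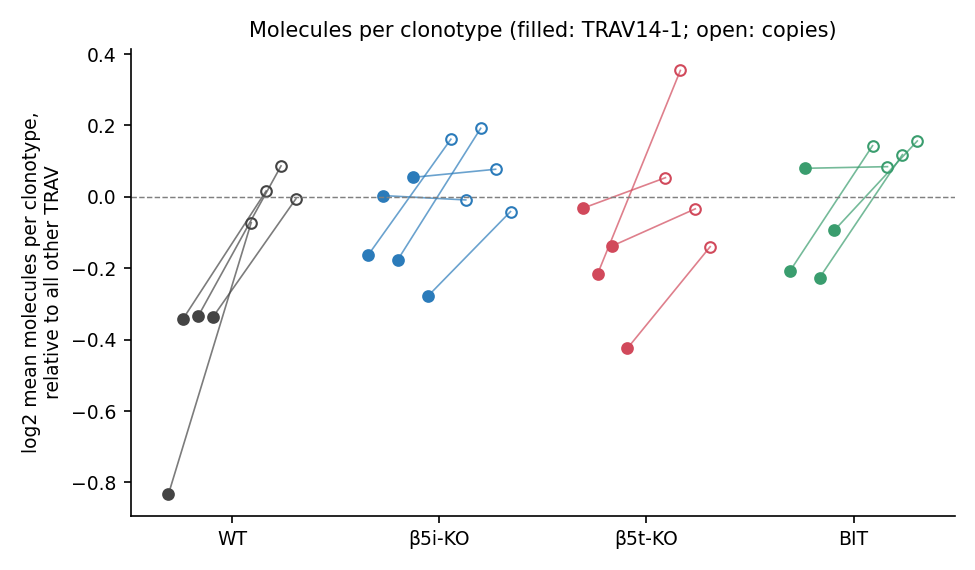
Log2 mean molecules per clonotype relative to all other TRAV genes of the same library (vertical axis), by genotype. Filled points are TRAV14-1, open points are its copies, and a line joins the 2 values of a mouse. TRAV14-1 is the higher in 1 of 17 mice, and WT mouse 1 has the lowest value, -0.83.

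Between genotypes, TRAV14-1 clonotypes held fewer molecules in WT mice, at -0.46 ± 0.25 (SD, n = 4), than in β5i-KO mice, at -0.11 ± 0.14 (SD, n = 5), and in BIT mice, at -0.11 ± 0.14 (SD, n = 4). Both differences were 0.35 on the log2 scale and neither pair of groups overlapped, but neither passed the correction over 5 comparisons (exact permutation p = 0.0159 and 0.0286, adjusted p = 0.0714 in both). WT mouse 1 had the lowest value, and without it both differences were 0.22 to 0.23 (exact permutation, adjusted p = 0.214). Depth also differed between these groups. Clonotypes of all other TRAV genes averaged 20.6 to 33.1 molecules in WT, 2.03 to 28.7 in β5i-KO and 8.16 to 14.5 in BIT mice. The part of depth in these differences was not tested. β5t-KO mice stood at -0.20 ± 0.17 (SD, n = 4). The difference from WT was 0.26 (exact permutation p = 0.114, adjusted p = 0.19), and leaving out 1 mouse moved it from 0.13, without WT mouse 1, to 0.33, without β5t-KO mouse 4 (adjusted p = 0.0476 in the latter, the only one to pass). For the copies no comparison between genotypes passed (lowest adjusted p = 0.286).

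Non-productive clones, whose CDR3 is out of frame or holds a stop codon, are not selected through their own receptor. TRAV14-1 made up 41 of 275 non-productive family clones in WT (14.9%) and 52 of 498 in β5i-KO mice (10.4%), pooled over the mice of each group. It made up 13 of 153 in β5t-KO (8.50%) and 86 of 635 in BIT mice (13.5%). β5t-KO mice, which had the highest share of TRAV14-1 among in-frame clonotypes, did not have the highest share in these pooled counts. By mouse, however, the highest share of all mice was that of β5t-KO mouse 4, with 4 of 16 clones. Whether selection or rearrangement sets the in-frame share was not tested. By mouse, no comparison between genotypes passed (exact permutation test, lowest adjusted p = 0.629 for the share of the family). β5t-KO mice 1 to 4 held 6 of 75, 0 of 1, 3 of 61 and 4 of 16 such clones, so their shares rest on few clones.

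The share of in-frame clones whose V and J ends met without an inserted base was described without a test. For TRAV14-1 it was 12.5% to 21.3% in WT and 16.2% to 26.7% in β5i-KO mice. It was 24.8% to 50.0% in β5t-KO mice and 17.1% to 20.2% in BIT mice. β5t-KO mice lay above all WT and all BIT mice, and overlapped with β5i-KO. The 50.0% came from β5t-KO mouse 2 and was 4 of 8 clones. For the copies the groups overlapped, at 21.1% to 31.2% in β5t-KO and 19.7% to 26.04% in WT mice. For all other TRAV genes the β5t-KO mice, at 27.7% to 30.01%, also lay above every BIT mouse, at 24.6% to 27.2%, and overlapped with WT mice, at 25.1% to 30.4%. The share also varied with the number of clones in a library: among all other TRAV genes it was 30.4% of 2322 clones in WT mouse 1 and 25.1% of 16249 in WT mouse 4. For TRAV14-1 it was 26.7% of 60 clones in β5i-KO mouse 5 and 16.2% of 333 in mouse 1. WT mice went the other way, with 12.5% of 24 clones in mouse 1 and 18.9% of 249 in mouse 4. β5t-KO mice held 8 to 210 TRAV14-1 clones, and the effect of depth was not tested.

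**Figure D5:**
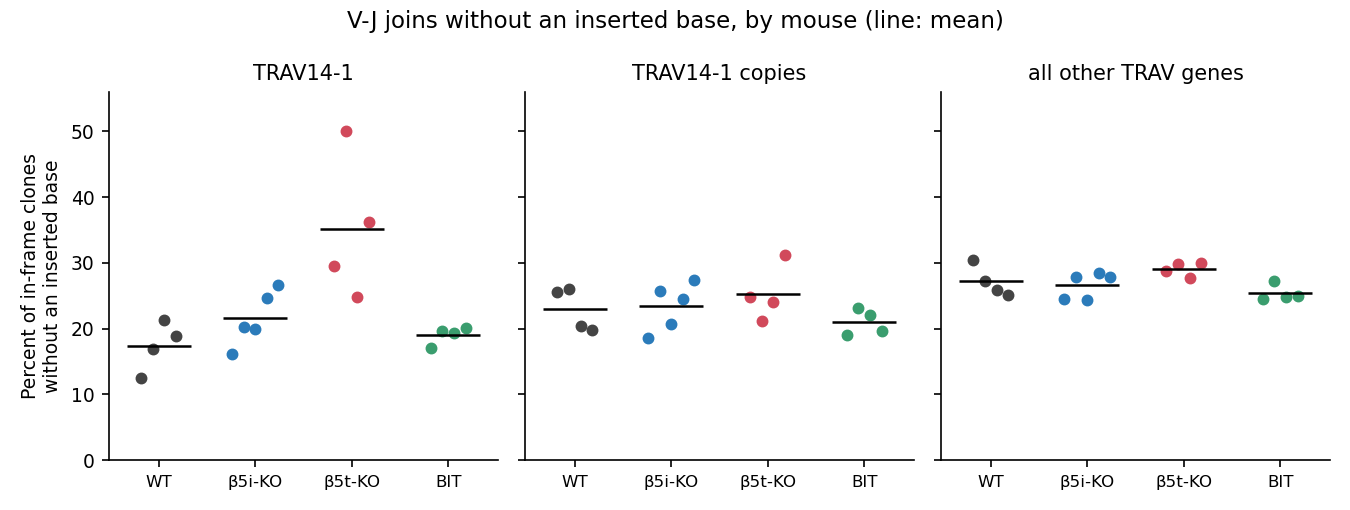
Percent of in-frame clones without an inserted base between V and J (vertical axis) by genotype, for TRAV14-1, its copies and all other TRAV genes. Points are mice and lines are means. For TRAV14-1 the β5t-KO mice lie at 24.8% to 50.0% and the WT mice at 12.5% to 21.3%, while the copies overlap between these groups.

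Clonotypes found in the most mice are shown with the nucleotide form found in the most libraries, because they show how the shared end of the V genes joins each J. Bases in capitals are inserted, assigned to neither the V nor the J gene end. The first 4 were the most widespread clonotypes of TRAV14-1 and the last 3 those of the copies. The 2 with TRAJ27 are called clonotype G and clonotype A after the residue that follows CAAS in their CDR3, and the others are called by their CDR3 amino acid sequence.
Clonotype G, TRAJ27: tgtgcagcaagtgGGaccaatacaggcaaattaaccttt
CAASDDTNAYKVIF, TRAJ30: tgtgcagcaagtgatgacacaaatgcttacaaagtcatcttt
Clonotype A, TRAJ27: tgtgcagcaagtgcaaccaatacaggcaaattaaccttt
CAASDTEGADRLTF, TRAJ45: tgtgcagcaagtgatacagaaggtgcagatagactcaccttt
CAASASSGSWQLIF, TRAJ22: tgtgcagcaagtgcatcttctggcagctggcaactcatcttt
CAASGDYSNNRLTL, TRAJ7: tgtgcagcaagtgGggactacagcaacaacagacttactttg
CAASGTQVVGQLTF, TRAJ5: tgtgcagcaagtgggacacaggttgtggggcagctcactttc
In 5 of these 7 forms no base lay between the V and J ends as the clone tables assign them. For clonotype A the assigned V part has 15 bases and runs past the 13 germline bases printed above. The nucleotide form shown for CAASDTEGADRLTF occurred in 14 mice and stood under TRAV14-1 in 3 of them, TRAV14-2 in 3, TRAV14-3 in 3, TRAV14D-1 in 4 and TRAV14N-3 in 1. For that reason the abundances below are summed over all members. They are TCRα read counts scaled so that the in-frame TRAV clones of a library total 1e6 (CPM). The libraries differed in depth, and its effect on CPM was not tested. β5t-KO libraries held 616 to 7587 in-frame TRAV clonotypes and WT libraries 2443 to 16782. β5i-KO libraries held 4358 to 24671 and BIT libraries 9285 to 26047.

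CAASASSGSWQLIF with TRAJ22 was found in 17 of 17 mice, in 24 nucleotide forms. It held 7668 to 10222 CPM in WT, 7126 to 9320 in β5i-KO and 7638 to 8302 in BIT mice. In β5t-KO mice 1 to 4 it held 13075, 21653, 12592 and 7406 CPM, so in CPM 3 β5t-KO mice stood above every mouse of the other groups and mouse 4 stood within their range. In molecules this order did not hold, with 1847, 1380, 1160 and 1009 in these mice and 94 to 3985 in the other groups. Clonotypes of all other TRAV genes averaged 25.04, 116, 15.2 and 95.7 molecules in β5t-KO mice 1 to 4, and 2.03 to 33.1 in the other groups. The abundance of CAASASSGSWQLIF relative to such an average clonotype was not tested.

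Clonotype G, with TRAJ27, was found in 12 of 17 mice, and all 12 carried it under TRAV14-1. It held 1288, 0, 1620 and 779 CPM in β5t-KO mice 1 to 4. In WT mice 1 to 4 it held 17.6, 0, 435 and 106 CPM, in β5i-KO mice 1 to 5 it held 81.6, 365, 174, 0 and 0 CPM, and in BIT mice 1, 2, 4 and 5 it held 79.2, 102, 0 and 43.4 CPM. The 3 β5t-KO mice that carried it stood above all other mice, and β5t-KO mouse 2 held no read of it. Clonotype A, also with TRAJ27, held 1041 and 346 CPM in β5t-KO mice 1 and 3 and no read in mice 2 and 4, compared with 0 to 149 CPM in the other groups. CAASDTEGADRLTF with TRAJ45 held 342, 0, 312 and 630 CPM in β5t-KO mice 1 to 4. It held 181 to 694 CPM in WT, 0 to 266 in β5i-KO and 76.3 to 299 in BIT mice. For this clonotype the β5t-KO mice overlapped with every other group.

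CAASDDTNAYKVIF with TRAJ30 held 0, 325, 636 and 1234 CPM in WT mice 1 to 4. In β5i-KO mice 1 to 5 it held 262, 153, 819, 379 and 655 CPM. In β5t-KO mice 1 to 4 it held 86.3, 0, 88.9 and 0 CPM, and in BIT mice 1, 2, 4 and 5 it held 483, 0, 295 and 473 CPM. Every β5t-KO mouse stood below every β5i-KO mouse, while WT and BIT each held 1 mouse with no read. The β5t-KO mice with no read, 2 and 4, had libraries of only 616 and 1652 in-frame TRAV clonotypes, where a rare clonotype can be missed. The 379 CPM of β5i-KO mouse 4 was 5 molecules. CAASGDYSNNRLTL with TRAJ7 and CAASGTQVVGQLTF with TRAJ5, both mostly under TRAV14D-1, held 45.6 to 602 and 0 to 421 CPM in WT, β5i-KO and BIT mice. In β5t-KO mice they held 0 to 112 and 0 to 80.3 CPM. The β5t-KO mice with no read of either were again mice 2 and 4. In β5t-KO mouse 1 they held 9 and 7 molecules, and in mouse 3 they held 1 and 4.

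Clonotypes that reached 10 CPM, here of all in-frame TCRα reads, in 3 or more mice of a group, called recurring, were tested together with edgeR. Of 3272 such clonotypes, 309 carried a TRAV14 member. edgeR called 0 of the 309 in each of the 5 comparisons, compared with 0.0611% of all 3272 in BIT compared with β5t-KO mice and 0% in the other 4 comparisons. At an unadjusted p below 0.05 stood 114 members in β5i-KO compared with WT (36.9%, beside 29.2% of all 3272), 131 in β5t-KO compared with WT (42.4%, beside 47.2%) and 126 in BIT compared with WT (40.8%, beside 29.3%). There were 92 in BIT compared with β5i-KO (29.8%, beside 18.9%) and 179 in BIT compared with β5t-KO (57.9%, beside 57.2%). DESeq2 called 102, 119, 93, 48 and 160 of the 309 in these comparisons. Its calls among all 3272 clonotypes were 25.6%, 44.1%, 21.9%, 9.72% and 53.5%. With TMM normalisation edgeR called 166 of the 309 in BIT compared with β5t-KO, beside 55.0% of all 3272, and 0 in the other 4 comparisons. The count of calls thus turned on the tool and the scaling, and no single clonotype is reported as changed. A clonotype could also pass the filter through a single group where it was high, which favours differences between groups. The shares at an unadjusted p are therefore a description and do not show that the family changed.

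Sharing of CDR3 sequences between mice was described by counts, which depend on depth and on the size of each set. TRAV14-1 had 2437 distinct CDR3 amino acid sequences, of which 83.2% occurred in 1 mouse and 117 in 3 or more mice. The copies had 9713, of which 70.5% occurred in 1 mouse and 1617 in 3 or more.

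Among the 84 tested TRAV genes outside the family, those whose percent of clonotypes was most like that of TRAV14-1 over the 17 libraries were TRAV13-4-DV7 (Pearson r = 0.77), TRAV13D-4 (r = 0.72) and TRAV13D-2 (r = 0.72). TRAV4-2 was the least like it (r = -0.76). All points share the libraries and the total of each library, and β5t-KO mice contribute the highest values, so these coefficients are a description. TRAV13-4-DV7 averaged 0.33% of clonotypes over WT mice, 0.36% over β5i-KO, 0.71% over β5t-KO and 0.45% over BIT mice.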

How the data were processed

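TCRα libraries were made from RNA of sorted CD8 T cells with a SMARTer kit for mouse TCR chains. Clones were assembled by the authors with MiXCR (version and filters not given in the sources used here; the submitters' processing notes name mm10). The deposited tables give read counts and unique molecule counts per clone, not normalised and not pooled. Depth was 1983032 to 8480570 TCRα reads, 14772 to 602397 molecules and 7.57 to 134 reads per molecule. TCRβ tables were not used.

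Here in-frame TRAV clones were counted under their first V gene. V genes needed 5 clonotypes in 4 libraries. Usage and recurring clonotypes were tested with edgeR 4.0.16 (quasi-likelihood, library size only, all groups in 1 fit, Benjamini-Hochberg threshold 0.05; DESeq2 1.42.0 as alternative; R 4.3.3). The edgeR step was tested on simulated data. Other comparisons used two-sided exact permutation tests over mice, or 100000 resamples within mice, in Python 3.11.15 with NumPy 2.4.6, pandas 2.3.3, SciPy 1.17.1 and Matplotlib 3.10.9. Adjustment was over the 5 genotype comparisons of a measure or the 3 within-mouse measures. The members, lists and tests were chosen with earlier results of these data known. The text names all members, the 3 most like TRAV genes and the least like, the 5 most used TRAJ genes, and the 4 most widespread clonotypes of TRAV14-1 and of the copies (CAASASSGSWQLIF counts under 2 V genes). BIT mouse 3 was left out because it held the fewest sequences, and the labels do not name the BIT mouse that the study omitted. Replicates are separate mice, and same-numbered mice did not deviate together (correlations -0.36 to 0.21 over 22 pairs), so numbers were not used as pairs. None of 28 library pairs within groups was a duplicate.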

Additional observations from a re-analysis of the deposited data

Results flagged for a closer look

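In 4 of 60 groups of 4 or 5 mice a single mouse stood apart from the others of its group, where chance alone sets about 1 in 20 groups apart. WT mouse 1 had the lowest percent of clonotypes with TRAV14-1 in WT, 0.982%, against 1.39% to 1.46% in the other WT mice. The same mouse had the fewest molecules per TRAV14-1 clonotype, -0.834 on the log2 scale relative to other TRAV genes, against -0.341 to -0.334 in the other WT mice. It held 24 TRAV14-1 clonotypes, fewer than any other WT mouse. β5i-KO mouse 2 had the lowest non-productive share of TRAV14-1, 2.38% of non-productive family clones against 9.09% to 11.6% in the other β5i-KO mice. Of all non-productive TRAV clones its share was 0.189%, against 0.682% to 0.737%. Both of these rest on 1 clone.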

How the results depend on the processing

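Of 885 summary values under other settings, 863 counted as unchanged. A tested value counted so if it kept its side of the threshold, without a change of sign where a value was called. A share counted so if it moved by less than the SD between mice of the groups compared. A count of members called counted so if the number stayed the same, even where the member differed. The others follow, and their cause was not tested. The TRAJ position of TRAV14-1 reversed to -6.54 against TRAV14-2 and TRAV14-3 alone. With BIT mouse 3 included, the copies' TRAJ difference between BIT and β5t-KO mice was -3.15 (exact permutation, adjusted p = 0.0397) and the molecules per TRAV14-1 clonotype in BIT compared with WT mice rose to 0.37 (adjusted p = 0.0397). Leaving out each mouse gave 0.13 to 0.33 for molecules of TRAV14-1 in β5t-KO compared with WT (passing only without β5t-KO mouse 4) and -0.0056 to 0.0799 residues for CDR3 length within mice (passing only without β5t-KO mouse 2). Median molecules within mice gave -0.13 (adjusted p = 0.416). The TRAV14-1 share in BIT minus WT mice, 1.86 percentage points, was 2.89 with unique molecules and 3.05 with clones that list 1 V gene, and in BIT minus β5i-KO mice, 0.72 points, it was 2.39 with CDR3 sequences that kept 1 V gene in all libraries. Leaving out each mouse gave 1.24 (without WT mouse 1) to 2.18 for the first and 0.23 (without β5i-KO mouse 5) to 1.34 (without β5i-KO mouse 3) for the second. Among recurring clonotypes DESeq2 called 102, 119, 93, 48 and 160 members where edgeR called 0, TMM normalisation called 166 in BIT compared with β5t-KO, and leaving out each mouse gave 0 to 137 there (137 of 309, 44.3%, without WT mouse 1, beside 42.7% of all 3272) and 0 to 1 in BIT compared with β5i-KO (1 without β5i-KO mouse 2). V gene usage in BIT compared with β5t-KO chose the family, and its counts are a description: edgeR called 2 members, TRAV14-1 and TRAV14-2, in place of 1 with nucleotide clonotypes (15.6% of all genes called), with libraries thinned to 14772 molecules (9.30%), with only the 2 groups (12 of 86 genes) and without β5i-KO mouse 2 (12.2%; range 1 to 2 members). The replicate number as a block also gave 2 there (10.0%) and changed no other call. Under unique molecules (12.1%) and reads (10.1%) the 1 member called there was TRAV14D-2 and not TRAV14-1. In the 3 tested comparisons of V gene usage, none of 522 alternative fits called a member (smallest adjusted p = 0.294). A change of sign between values that were not called (102 of 1075) was not counted. β5t-KO mouse 2, with 8 TRAV14-1 clonotypes, limits each β5t-KO value. Same-numbered mice correlated best with their own number in 1 of 17 libraries.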
